A study of Mus musculus with 30 samples.

Results

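The 3 genes of inositol 1,4,5-trisphosphate receptors (IP3Rs) and 7 genes of phospholipase C (PLC) were followed in RNA sequencing of bone marrow-derived dendritic cells (BMDCs). The 10 genes are Itpr1, Itpr2 and Itpr3 for the receptors, and Plcb1, Plcb2, Plcb3, Plcg1, Plcg2, Plcd1 and Plcd3 for the lipases. They were found by their Ensembl identifiers among 43629 genes in the deposited table of read counts, and all 10 had a row there. The rule names genes by what they encode and not by their levels, but it was set with earlier results of these data known. The libraries came from 10 numbered cultures, 5 from wild-type (WT) mice and 5 from Cacnb3-/- mice, which lack the voltage-gated calcium channel subunit β3. Each culture gave 3 libraries, named ctrl, 0p5h and 24h, so that each genotype and set holds 5 libraries. BMDCs of all groups were grown for 6 days with the growth factor GM-CSF, and stimulation was 500 µM ATP for 30 min, followed by harvest or by further culture until 24 h. For the set named 24h, the library name and the treatment field of the labels both give 24 h after ATP. The 2 labels conflict for ctrl and 0p5h, because libraries named ctrl carry the treatment 30min_ATP and libraries named 0p5h the treatment vehicle. The sets are therefore given by library name, and which of ctrl and 0p5h was unstimulated cannot be told apart from the labels. The mice were adults of both sexes. The study's methods name C57BL/6J for WT and C57BL/6N for Cacnb3-/- mice, so the deletion and the substrain cannot be told apart in a comparison of genotypes, while comparisons of sets within a genotype do not involve it.

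PLC enzymes cleave the membrane lipid phosphatidylinositol 4,5-bisphosphate (PIP2) into diacylglycerol, which stays in the membrane and activates protein kinase C, and IP3, which diffuses to the endoplasmic reticulum. There IP3 opens its receptors, which are tetrameric calcium channels, and calcium flows from the store into the cytosol. PLCβ enzymes are activated by G protein-coupled receptors, among them P2Y receptors for ATP and other nucleotides, PLCγ enzymes by tyrosine kinase cascades and PLCδ enzymes mainly by calcium itself. The 3 receptor isotypes differ in their affinity for IP3 and in how calcium regulates them, which makes their proportions of interest in a cell that answers extracellular ATP.

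The libraries held from 8237393 to 32164225 reads assigned to genes, with a median of 19556920. Levels are given as CPM, the reads of a gene per 1e+06 reads of its library, scaled with edgeR's TMM factors. Cacnb3 itself had reads in all 30 libraries, at 1035 to 2143 CPM in WT and 573 to 1331 CPM in libraries labelled Cacnb3-/-. These ranges overlap, and a count over the whole gene does not show which of its exons were read, so it checks the genotype only in part. The 7 dendritic cell markers, which include Itgax, Flt3, Zbtb46 and the invariant chain Cd74, were counted in every group and summed to between 9706 and 28552 CPM per library. They moved with set and genotype. Their median was 20258, 22873 and 21477 CPM in WT at ctrl, 0p5h and 24h, and 17292, 18355 and 11163 CPM in Cacnb3-/- BMDCs. The 6 mature dendritic cell markers had medians of 20584, 21269 and 23548 CPM in WT and of 12605, 14531 and 14736 CPM in Cacnb3-/- BMDCs. The 5 B cell markers summed to at most 5.10 CPM and the 5 T and NK cell markers to at most 22.8 CPM. Macrophage markers summed to 756 to 4374 CPM, with medians at ctrl, 0p5h and 24h of 1625, 1984 and 1098 CPM in WT and of 1943, 2736 and 1360 CPM in Cacnb3-/- BMDCs. Granulocyte markers summed to 130 to 691 CPM, and erythroid and megakaryocyte markers to 27.4 to 68.8 CPM in WT and to 66.0 to 233 CPM in Cacnb3-/- BMDCs. The part of these cell types in the results below was not tested. Mitochondrial genes took 0.706% to 5.61% of the reads in WT and 2.16% to 16.5% in Cacnb3-/- libraries. Libraries also differed in how levels depend on the GC content of a gene. This GC trend is given as the log2 difference between genes of 60% and of 40% GC, relative to the mean of all libraries. It had a median of -0.91 in the Cacnb3-/- libraries named 24h and of 0.22 in the WT libraries of the same set.

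Among genes of the pathway, levels were compared per length, as CPM per kilobase (kb) of exon in the gene models of the count table. The lipases other than Plcd3 and Plcb1 had higher means than the receptors. Plcg2, the PLCγ isotype of blood cells, had the highest mean over 10 cultures, 13.1 ± 2.83 CPM per kb (SD, n = 10 cultures, 3 libraries averaged in each). Plcb3, an enzyme downstream of Gq-coupled receptors, followed with 11.4 ± 1.68 CPM per kb, and Plcd1, a calcium-sensitive enzyme, with 10.7 ± 1.44 CPM per kb. Plcg1, the widely expressed PLCγ isotype, reached 8.56 ± 1.17 CPM per kb. Neighbours among these 4 genes differed by less than the SD of their difference over cultures, so their order was not fixed, although Plcg2 lay above Plcb3 in 7 of 10 cultures. Plcb2, the PLCβ isotype typical of blood cells, was lower than Plcg1 in 10 of 10 cultures, at 5.0 ± 1.54 CPM per kb. The 3 receptor genes came next and close together, with 2.16 ± 0.43 CPM per kb for Itpr1, 1.82 ± 0.29 for Itpr2 and 1.80 ± 0.38 for Itpr3, and they differed from each other by less than the SD of their differences. Plcd3 was at 0.37 ± 0.21 CPM per kb, from 5 to 68 reads per library, and Plcb1 at 0.064 ± 0.029 CPM per kb, from 0 to 24 reads. At these counts, 2-fold changes of Plcd3 and Plcb1 in at least 1 direction lay within the 95% intervals of the unpaired fits between sets and were not detectable. In the Cacnb3-/- library named 24h of culture p974s852, Plcb1 had 0 reads, which allows a level of up to 0.264 CPM (3 reads, counting error only).

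**Figure D1:**
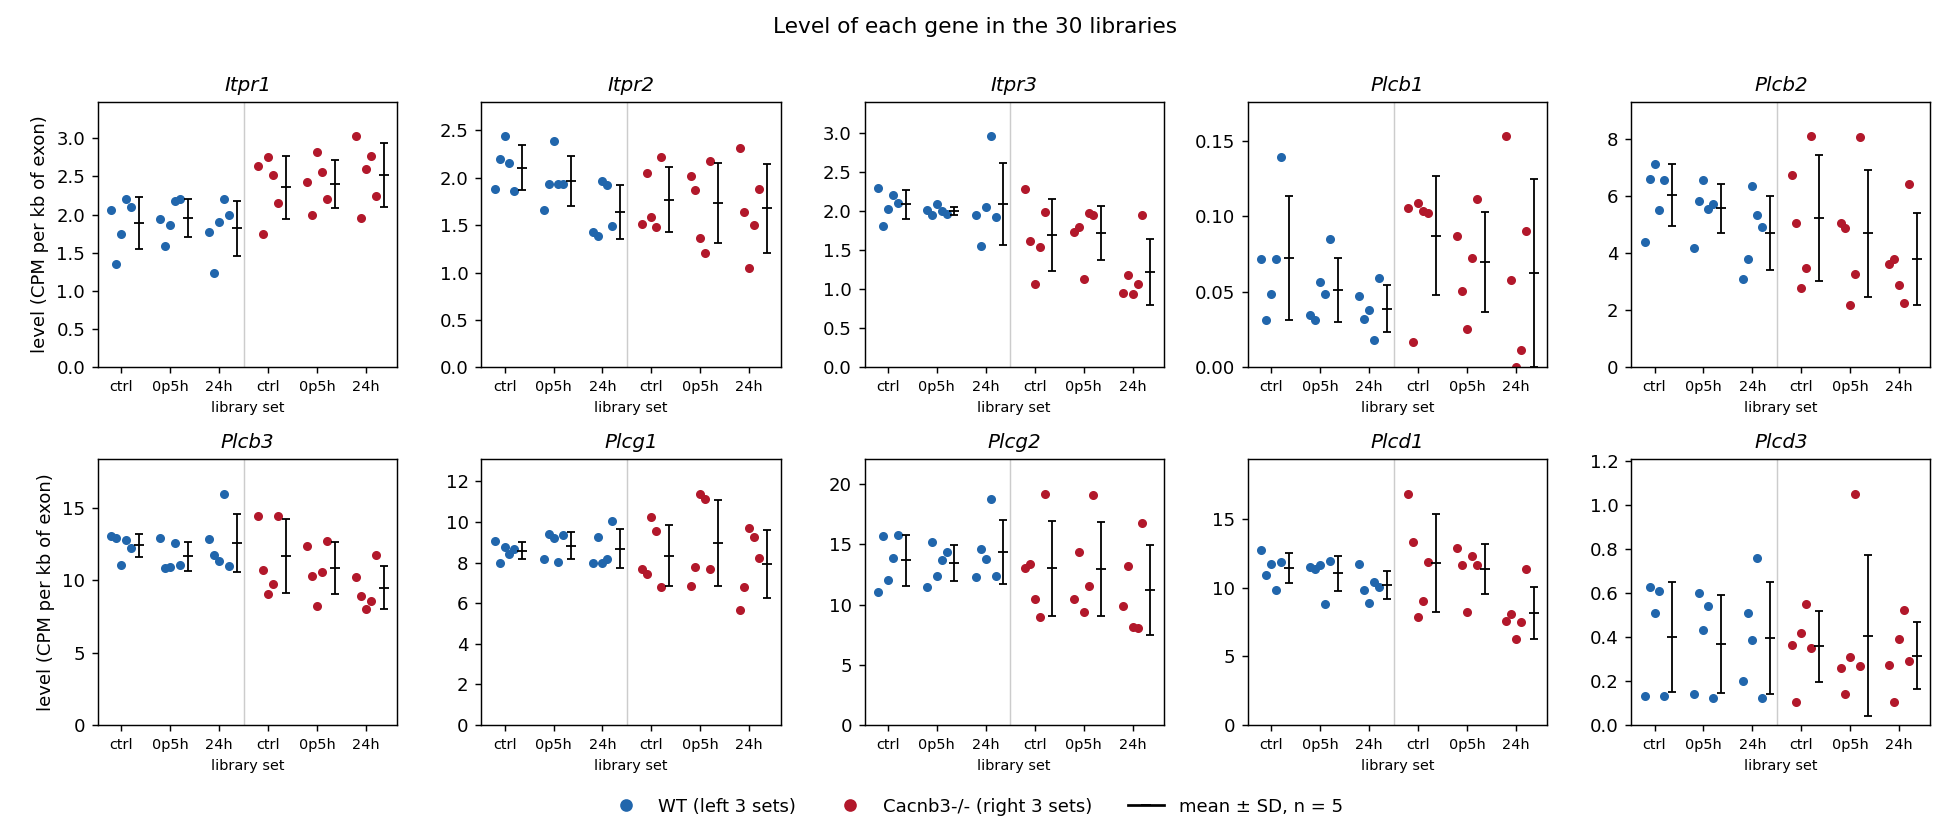
Level of each of the 10 genes in CPM per kb of exon (y axis, from 0, a different range in each panel) in the 3 library sets of WT (blue) and Cacnb3-/- BMDCs (red). Points are libraries and black marks the mean ± SD of 5 cultures. Itpr3 and Plcd1 sit lower in 4 of the 5 Cacnb3-/- libraries named 24h, and Itpr2 lies lower in WT libraries named 24h than in those named ctrl with some overlap.

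The genes lie on separate chromosomes or far from each other on GRCm38. Itpr1 (ENSMUSG00000030102) is on the forward strand of chromosome 6 from 108213118 to 108551109, and Itpr2 (ENSMUSG00000030287) on the reverse strand of the same chromosome from 146108299 to 146502223. Itpr3 (ENSMUSG00000042644) is on the forward strand of chromosome 17 from 27057304 to 27122223. Their exons cover 9848, 13484 and 8990 bases. The transcripts of Itpr1 and Itpr2 have a similar GC content, 49.5% and 49.7%, while that of Itpr3 is 57.1%. Of the exon bases of Itpr3, 2.60% overlap other genes, Mir7677 on the same strand and Itpr3os on the opposite strand. Reads were counted with no strand option, so reads on these bases cannot be assigned to Itpr3 or the gene it overlaps. Plcb2 (ENSMUSG00000040061, chromosome 2, 118707517 to 118728438), Plcb1 (ENSMUSG00000051177, chromosome 2, 134786159 to 135475258) and Plcg1 (ENSMUSG00000016933, chromosome 2, 160731300 to 160775760) share a chromosome. The others are Plcb3 (ENSMUSG00000024960, chromosome 19, 6953714 to 6969759), Plcg2 (ENSMUSG00000034330, chromosome 8, 117498291 to 117635140), Plcd1 (ENSMUSG00000010660, chromosome 9, 119071527 to 119093496) and Plcd3 (ENSMUSG00000020937, chromosome 11, 103070304 to 103101658). Plcg1 has the largest overlap with other genes, 6.68% of its exon bases.

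To describe the isotype composition, each receptor gene was given as a share of the summed CPM per kb of the 3 receptors in its library. These shares are scores over chosen genes and are described without a test. A share can be higher where the gene's own level is not, if the other genes in the sum are lower. With exon length, the 3 isotypes were close to equal in WT BMDCs. In the libraries named ctrl, Itpr1 made up 30.9 ± 3.97%, Itpr2 34.8 ± 4.96% and Itpr3 34.2 ± 1.56% of the sum (SD, n = 5). In Cacnb3-/- BMDCs of the same set, Itpr1 made up 40.7 ± 7.86%, Itpr2 30.5 ± 5.91% and Itpr3 28.8 ± 5.77%. The spread over cultures was thus wider in Cacnb3-/- than in WT BMDCs for each isotype in this set, and the genotypes overlapped. Itpr1 was the most abundant isotype in each of the 5 Cacnb3-/- libraries named 0p5h and each of the 5 named 24h, and in 3 of the 5 named ctrl. Among the 15 WT libraries it was the most abundant in 3, 2 of them named 0p5h and 1 named 24h. The order of the isotypes depends on the length used. With the longest annotated transcript in place of all exon bases, or with CPM not divided by length, Itpr2 had a larger mean share than Itpr1 in all 3 WT sets.

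From ctrl to 24h, the isotype with the most regular difference was Itpr2 in WT and Itpr1 in Cacnb3-/- BMDCs. In WT BMDCs the share of Itpr2 was lower in 5 of 5 cultures. It was 30.3%, 41.0%, 39.3%, 32.9% and 30.8% in the libraries named ctrl (cultures p974s846, p974s850, p974s855, p974s856 and p974s864) and 27.7%, 33.2%, 33.3%, 27.2% and 27.6% in those named 24h, a mean difference of -5.04 ± 2.14 percentage points (SD, n = 5). The share of Itpr3 was higher in 5 of 5 WT cultures, by 3.15 ± 2.94 points, and that of Itpr1 in 4 of 5. The levels of Itpr3 and Itpr1 in CPM were each higher at 24h in only 2 of 5 WT cultures. In Cacnb3-/- BMDCs it was the share of Itpr1 that was higher at 24h, in 5 of 5 cultures. It was 41.0%, 32.2%, 50.9%, 45.5% and 33.9% in the libraries named ctrl (cultures p974s843, p974s851, p974s852, p974s853 and p974s865) and 48.1%, 41.0%, 56.7%, 51.9% and 36.9% in those named 24h, a mean difference of 6.21 ± 2.07 points. The lowest of these 24h values, 36.9%, lay next to the highest of WT, 36.8%, and with the longest transcript or with CPM not divided by length the genotypes overlapped. The share of Itpr3 was lower in 3 of 5 Cacnb3-/- cultures, with a mean difference of -6.31 ± 8.70 points, and was lowest at 15.1% in culture p974s843, where it had been 35.4%. The ratio of the levels of Itpr1 and Itpr3 per kb was 0.90 ± 0.10 in the WT libraries named ctrl and 0.88 ± 0.11 in those named 24h. In Cacnb3-/- libraries it was 1.51 ± 0.64 and 2.27 ± 0.84. Once each library's GC trend was removed from the levels, the share of Itpr1 at 24h was higher in 5 of 5 cultures of each genotype, by 4.31 ± 1.46 points in Cacnb3-/- and by 2.35 ± 1.65 points in WT BMDCs. The difference of Itpr2 in WT was then -4.82 ± 2.58 points, lower in 5 of 5 cultures, and that of Itpr3 in Cacnb3-/- BMDCs was -3.36 ± 6.86 points. Whether these shifts differ between genotypes was not tested on the shares.

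**Figure D2:**
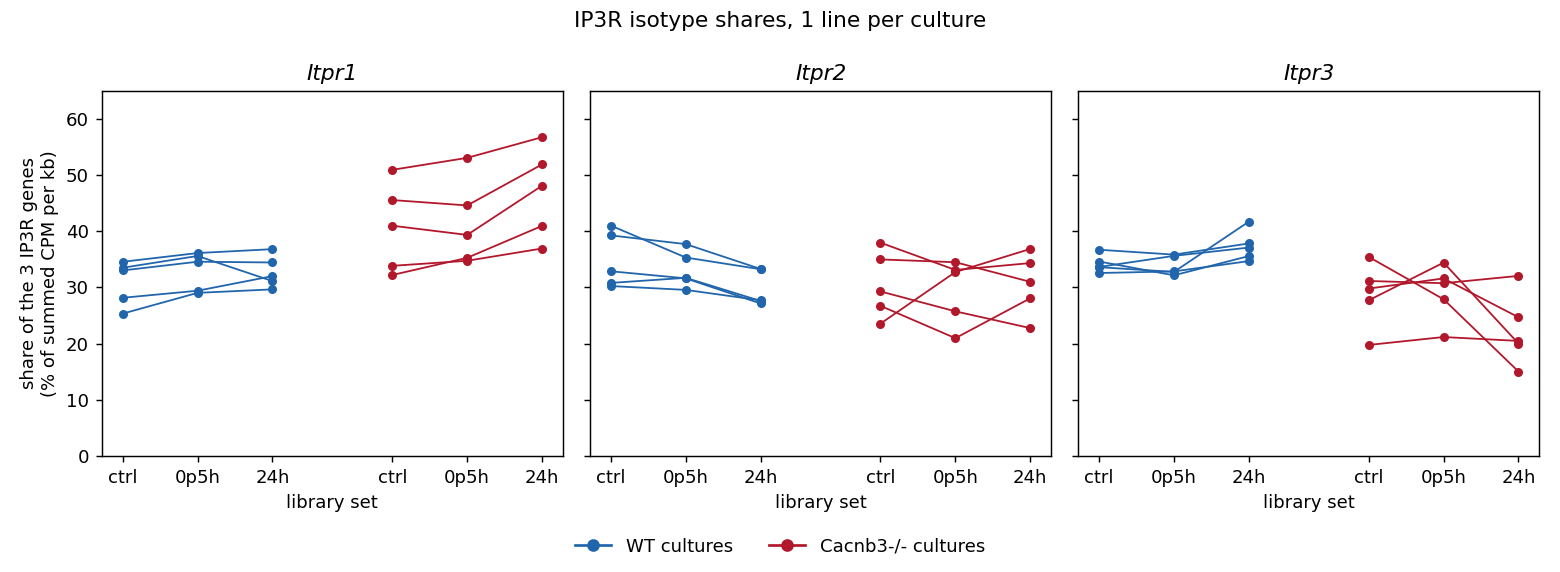
Share of each IP3R gene in the summed CPM per kb of the 3 receptors (y axis, percent) by library set, with 1 line per culture, WT in blue and Cacnb3-/- in red. All 5 WT lines of Itpr2 end lower at 24h than at ctrl, and all 5 Cacnb3-/- lines of Itpr1 end higher.

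The set named 0p5h had nearly the composition of ctrl. The share of Itpr1 was higher at 0p5h in 5 of 5 WT cultures, but by only 2.03 ± 0.98 points, and in Cacnb3-/- BMDCs the difference was 0.70 ± 1.99 points. For Itpr2 the differences were -1.65 ± 2.44 points in WT and -1.09 ± 6.07 points in Cacnb3-/- BMDCs, and for Itpr3 -0.38 ± 1.64 and 0.39 ± 5.16 points. Summed over the 3 isotypes, the receptor level in WT was 6.08 ± 0.44 CPM per kb at ctrl, 5.92 ± 0.37 at 0p5h and 5.55 ± 1.07 at 24h. In Cacnb3-/- libraries the sums were 5.82 ± 0.52, 5.85 ± 0.41 and 5.41 ± 0.76 CPM per kb. Within cultures, the sum was lower at 24h than at ctrl in 5 of 5 Cacnb3-/- cultures, by a mean difference of -0.41 ± 0.29 CPM per kb, and in 4 of 5 WT cultures (-0.54 ± 0.69 CPM per kb).

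Among the lipases, 5 genes made up nearly the whole. Over all 30 libraries, Plcg2 held 26.4% of the summed CPM per kb of the 7 PLC genes, Plcb3 23.3%, Plcd1 21.6%, Plcg1 17.8% and Plcb2 9.97%, while Plcd3 held 0.77% and Plcb1 0.13%. The leading gene depends on the length used. With CPM not divided by length, Plcg1 had a larger mean share than Plcg2 in every group of genotype and set. With the longest transcript this was so in the Cacnb3-/- libraries named 0p5h (26.2% and 25.2%) and 24h (27.6% and 25.9%) only. In WT, Plcb2 held 11.4 ± 1.91% in the libraries named ctrl and 9.23 ± 2.54% in those named 24h, and was lower in 5 of 5 cultures. The share of Plcd1 was also lower in 5 of 5 WT cultures at 24h, with a mean difference of -1.65 ± 1.76 points. In Cacnb3-/- BMDCs, Plcd1 held 23.1 ± 4.17% at ctrl and 19.8 ± 1.29% at 24h, lower in 4 of 5 cultures. The share of Plcg1 was higher in 5 of 5 of these cultures by 2.51 ± 0.77 points, although its level in CPM was lower at 24h in 4 of 5. Plcg1 varied widely between Cacnb3-/- cultures, with shares from 11.2% to 25.1% in the libraries named ctrl, while the WT range in this set was 14.6% to 18%. The sum over the 7 lipases was 52.6 ± 2.25, 50.9 ± 2.11 and 51.0 ± 4.79 CPM per kb in WT libraries named ctrl, 0p5h and 24h. In Cacnb3-/- libraries it was 50.5 ± 9.45, 49.3 ± 7.06 and 41.0 ± 8.10 CPM per kb, and it was lower at 24h than at ctrl in 5 of 5 cultures, with a mean difference of -9.54 ± 7.05 CPM per kb. In WT this difference was -1.62 ± 5.86 CPM per kb.

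**Figure D3:**
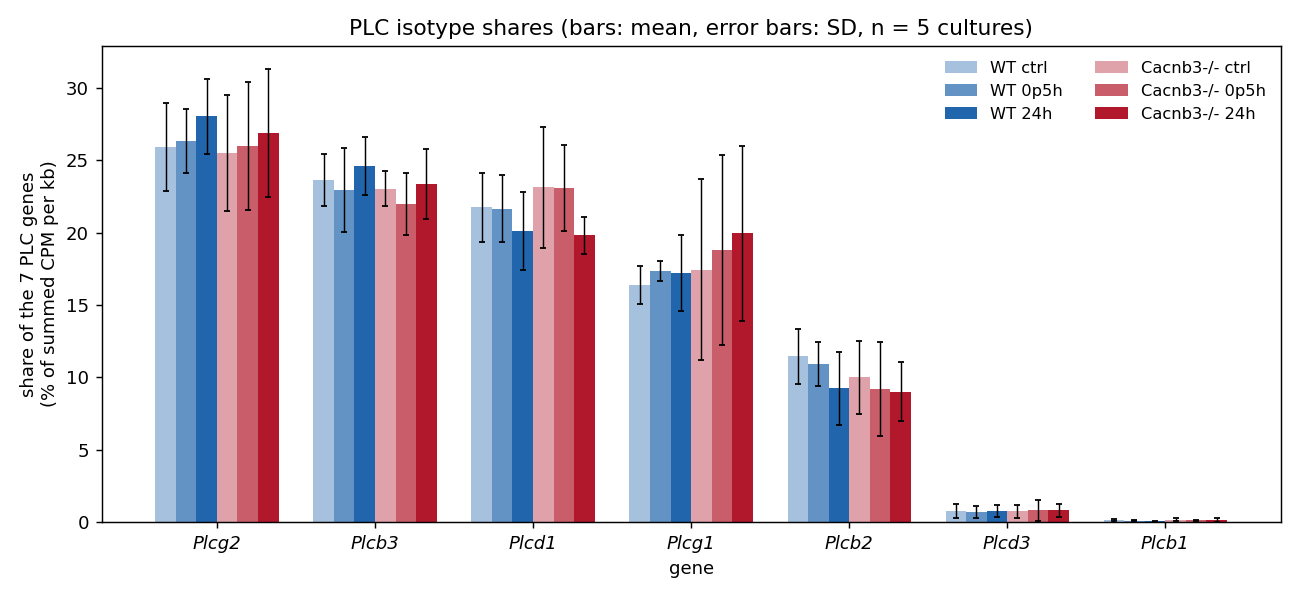
Share of each PLC gene in the summed CPM per kb of the 7 PLC genes (y axis, percent, from 0) in the 6 groups of genotype and set. Bars are means and error bars SDs of 5 cultures. With exon length as used here, Plcg2 has the largest mean share and Plcb1 the smallest in each of the 6 groups.

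Changes between sets were tested for each gene on the raw counts by edgeR's quasi-likelihood test, with p-values adjusted over all genes by the Benjamini-Hochberg method. Calls required both a change of 2-fold or more and an adjusted p under 0.05. From ctrl to 0p5h, 0 of 10 genes were called in WT and 0 of 10 in Cacnb3-/- BMDCs, where 0.176% and 0.29% of all genes tested were called. An unadjusted p under 0.05 was reached by 0 of them, and by DESeq2 0 were called in each genotype. For the 8 genes other than Plcb1 and Plcd3, the changes in WT ran from -0.11 to 0.06 on the log2 scale, and their 95% intervals from -0.43 to 0.37. In Cacnb3-/- BMDCs these ran from -0.17 to 0.09, with intervals from -0.93 to 0.59. The widest interval there belongs to Plcb2, whose Cacnb3-/- cultures ranged from 18.3 to 53.4 CPM at ctrl and from 14.4 to 53.2 CPM at 0p5h. These intervals leave 2-fold changes outside for each of these 8 genes in both genotypes.

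The 3 libraries of a culture share its number. In 29 of 30 such pairs the deviations from the group means correlated by more than 0.1 across genes, the exception being ctrl and 24h of culture p974s843. A fit with the culture as a replicate block was therefore run for each comparison of sets, here also with no fold minimum, because the block narrows the intervals below 2-fold. With the block and no fold minimum, 5.96% of genes in WT and 2.35% in Cacnb3-/- BMDCs passed from ctrl to 0p5h, and still 0 of the 10. The changes then lay between -0.10 and 0.06 in WT for the 8 genes above, with intervals from -0.21 to 0.19. In Cacnb3-/- BMDCs they lay between -0.19 and 0.08, with intervals from -0.38 to 0.27. Plcb2 had the lowest p of the 10 in both genotypes (adjusted p = 0.243 in WT and 0.324 in Cacnb3-/- BMDCs), and it was lower at 0p5h in 4 of 5 WT and 5 of 5 Cacnb3-/- cultures.

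From ctrl to 24h in WT, 9 of the 10 genes passed the filter on low counts, Plcb1 being the exception, and 0 were called (0.0152% of all genes). DESeq2 called 0. In edgeR, Itpr2 alone of the 9 reached an unadjusted p under 0.05, a level reached by 1106 of all 13176 genes tested. With cultures in the order given above, the libraries named ctrl held Itpr2 at 25.4, 29.6, 32.9, 29.1 and 25.2 CPM, the 0p5h libraries at 22.3, 26.1, 32.2, 26 and 26.1 CPM and the 24h libraries at 19.3, 18.7, 26.6, 25.9 and 20.1 CPM. All 5 cultures had less Itpr2 at 24h than at ctrl and than at 0p5h, while the sets overlapped because cultures differ in level. Relative to ctrl its log2 fold change came to -0.36 with a standard error of 0.13 (adjusted p = 0.502), and relative to 0p5h to -0.26 with a standard error of 0.14 (adjusted p = 0.521). With the replicate block the fold change from ctrl was again -0.36 and its adjusted p was 0.0508, just above the threshold. In this fit, with no fold minimum, 6.05% of all genes passed and 0 of these 9. DESeq2 with the block put it at 0.0363 (8.65% of all genes passed), and edgeR with the block and the GC trend removed at 0.0224 (9.41%). Leaving out each culture in turn gave adjusted p of 0.0407 to 0.174 with the block, and it was under 0.05 without culture p974s856 only. The 24h library of p974s856 had the highest GC trend of all libraries, 1.09, and the lowest share of mitochondrial reads, 0.706%. The ctrl library of culture p974s846 was sequenced on another lane than its other libraries, and without this culture the blocked change was -0.36 (adjusted p = 0.174).

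Plcb2, which Gβγ subunits as well as Gq can activate, was likewise lower at 24h in WT. Its levels were 28.9, 43.5, 47.0, 36.3 and 43.3 CPM at ctrl, 27.5, 38.3, 43.4, 36.6 and 37.8 CPM at 0p5h and 20.4, 25.1, 42.0, 35.3 and 32.4 CPM at 24h. All 5 cultures were lower at 24h than at ctrl, most so p974s850, and the sets overlapped. The log2 fold change from ctrl was -0.35 (standard error 0.20, adjusted p = 0.653), and with the replicate block -0.37 (standard error 0.11, adjusted p = 0.0823). DESeq2 with the block gave an adjusted p of 0.0459, and edgeR with the block and the GC trend removed 0.0209. The macrophage marker sum was also lower in this set, with a median of 1098 CPM against 1625 CPM at ctrl, and its part in the levels of Itpr2 and Plcb2 was not tested. The sum includes Cd14, whose WT mean moved with the set, at 472 CPM at ctrl, 1061 CPM at 0p5h and 189 CPM at 24h. Csf1r, another of these markers, had WT means of 610 CPM at ctrl and 426 CPM at 24h. Of the genes followed here, the others stayed nearer to 0 in WT. From ctrl to 24h the changes of Itpr1, Itpr3, Plcb3, Plcg1 and Plcg2 ranged from -0.05 to 0.08, Plcd3 was at -0.06, and Plcd1 was at -0.16 (adjusted p = 0.709). From 0p5h to 24h in WT, 0.639% of all genes were called and 0 of these 9, with 0 at an unadjusted p under 0.05 and 0 called by DESeq2. With the block and no fold minimum, 11.3% of all genes passed and 0 of the 9, with Itpr2 at an adjusted p of 0.0744 and Plcb2 at 0.107. DESeq2 with the block passed 11.9% of all genes and 0 of the 10, and edgeR with the block and the GC trend removed 15.7% and both Itpr2 and Plcb2.

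In Cacnb3-/- BMDCs the 24h set had the largest differences of the 10 genes. From ctrl to 24h, 0 of 10 were called by edgeR or DESeq2, as were 0% of all genes by edgeR. Plcd1 alone of the 10 had an unadjusted p under 0.05, beside 1343 of all 12452 genes tested in edgeR. From 0p5h to 24h, 0 of 10 were called by both tools (0.66% of all genes by edgeR). Plcd1 was again the only 1 of the 10 at an unadjusted p under 0.05, beside 2222 of all 12730 genes tested in edgeR. All 7 PLC genes and 2 of the 3 receptors had a lower mean at 24h than at either other set. The median log2 fold change of the 10 genes was -0.26 from ctrl and -0.19 from 0p5h, where the median of all genes tested was -0.01 from ctrl and nearer to 0 from 0p5h. With the block and the GC trend removed, the median of the 10 genes from ctrl was -0.06, and Plcb2 alone kept an unadjusted p under 0.05 in edgeR (log2 fold change -0.27, adjusted p = 0.169). With the replicate block and no fold minimum, 8.54% of all genes passed from ctrl to 24h and 0 of the 10. DESeq2 with the block passed 12.9% of all genes and 2 of the 10, Plcb2 and Plcd1, and edgeR with the block and the GC trend removed 4.76% and 0 of the 10. From 0p5h to 24h, 28.6% of all genes passed and 2 of the 10, Itpr3 and Plcd1, a smaller share than that of all genes. DESeq2 with the block passed 27% of all genes and the same 2, and with the GC trend removed as well edgeR passed 24.1% and 0 of the 10.

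Itpr3 was counted in Cacnb3-/- BMDCs at 20.5, 14.5, 9.60, 13.8 and 17.8 CPM at ctrl, at 15.5, 16.1, 10.1, 17.8 and 17.5 CPM at 0p5h and at 8.51, 10.6, 8.45, 9.62 and 17.5 CPM at 24h (cultures p974s843, p974s851, p974s852, p974s853 and p974s865). All 5 cultures were lower at 24h than at either other set, but culture p974s865 only slightly, and culture p974s852 was already low in the other sets, so the sets overlapped. The log2 fold change from 0p5h to 24h was -0.47 (standard error 0.23, adjusted p = 0.299), and with the block -0.49 (standard error 0.14, adjusted p = 0.0263). Over 10 alternative settings its adjusted p ran from 0.0156 to 0.469, with 3 under 0.05, all of them with the block. Without culture p974s843, p974s851 or p974s853, Itpr3 no longer passed with the block (adjusted p = 0.0995, 0.0971 and 0.0823). Leaving out p974s865 gave -0.65 and 0.00151, where 40.7% of all genes passed.

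Plcd1 followed a similar course. It was counted at 44.6, 35.3, 20.9, 24.0 and 31.5 CPM at ctrl, at 34.2, 30.9, 21.8, 32.6 and 30.9 CPM at 0p5h and at 20.1, 21.4, 16.5, 19.9 and 30.1 CPM at 24h in the same cultures. It was lower at 24h in 5 of 5 cultures, least in p974s865, and the sets overlapped through cultures p974s852 and p974s865. The log2 fold change from 0p5h to 24h was -0.46 (standard error 0.17, adjusted p = 0.230), and with the block -0.47 (standard error 0.12, adjusted p = 0.0137). Over 10 alternative settings its adjusted p ran from 0.00494 to 0.402, with 3 under 0.05. Without culture p974s843 or p974s851, Plcd1 no longer passed with the block (adjusted p = 0.0645 and 0.0605). The 24h library of culture p974s852 was sequenced on another lane than its other libraries. Without this culture both genes still passed with the block and no fold minimum, where 22.3% of all genes passed. Itpr3 was then at -0.54 (adjusted p = 0.0432) and Plcd1 at -0.48 (adjusted p = 0.0352).

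Itpr1 and Itpr2 had no p under 0.05 between sets in Cacnb3-/- BMDCs. Itpr1 was at 26, 17.1, 27.1, 24.8 and 21.2 CPM at ctrl and at 29.8, 19.3, 25.6, 27.3 and 22.1 CPM at 24h in Cacnb3-/- BMDCs, higher in 4 of 5 cultures. With the block, its change from ctrl to 24h was 0.09 (95% interval -0.14 to 0.33) and that from 0p5h to 24h 0.07 (-0.15 to 0.29). Itpr2 was higher at 24h in 2 cultures and lower in 3, and went from 20.5 to 31.3 CPM in p974s843 and from 21.3 to 14.1 CPM in p974s852. Its blocked change from ctrl was -0.11 (95% interval -0.47 to 0.26). Of the other lipases, Plcb2, Plcb3 and Plcg2 had an unadjusted p under 0.05 from ctrl to 24h with the block, at log2 fold changes of -0.45, -0.29 and -0.22 and adjusted p of 0.0648, 0.0800 and 0.147. Of all 12452 genes tested there, 3876 had an unadjusted p under 0.05. Plcb3 and Plcg2 were lower in 5 of 5 cultures and Plcb2 in 4 of 5. With the GC trend removed as well, Plcb3 was at -0.02 and Plcg2 at -0.03. Plcg1 was nearest to 0 of the lipases in this fit, at -0.08 (95% interval -0.32 to 0.16).

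**Figure D4:**
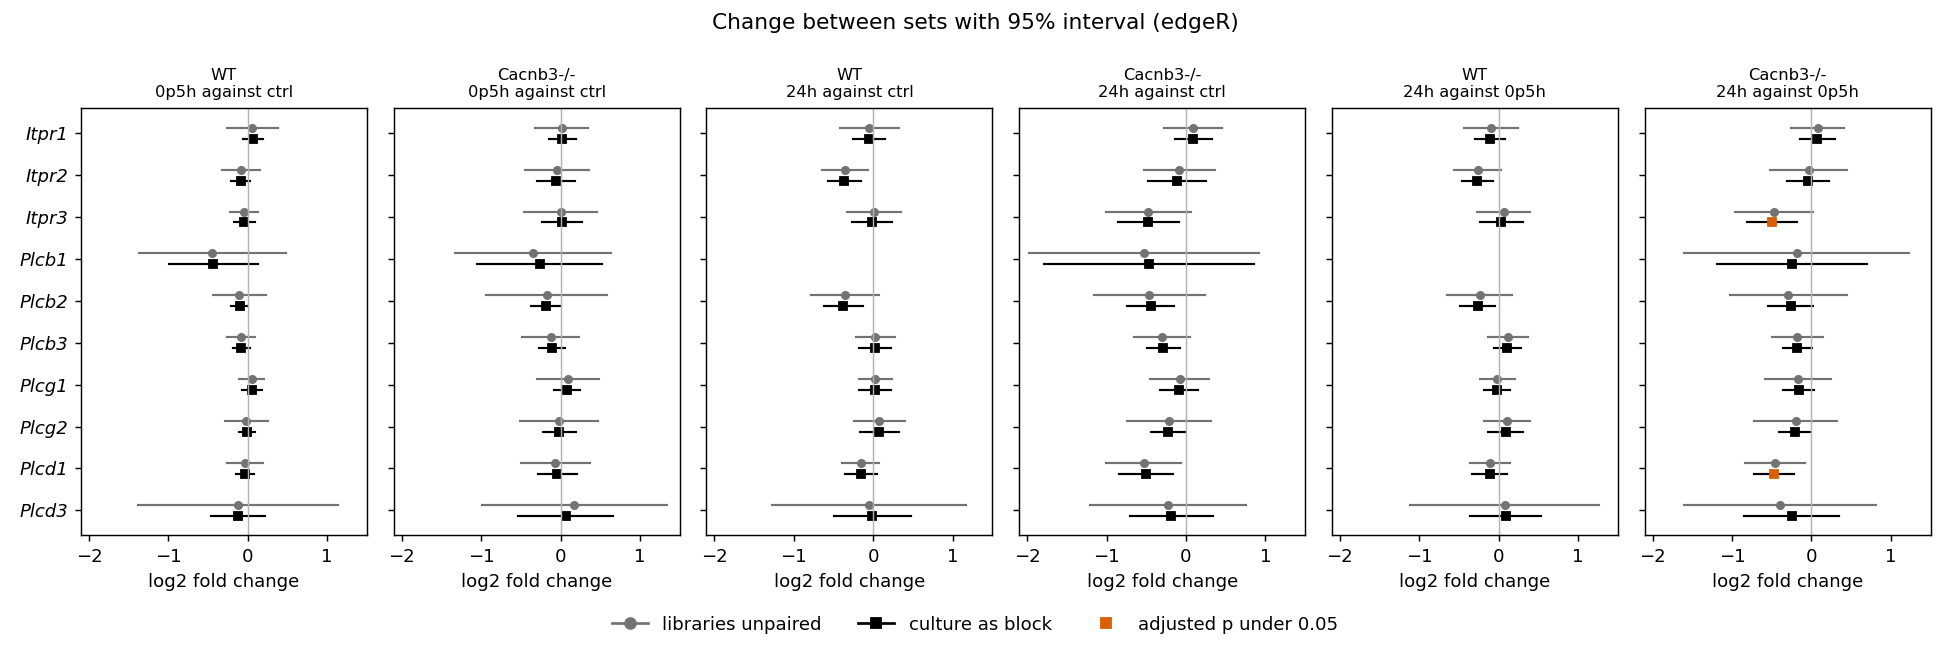
Log2 fold change of each gene (x axis) between sets in WT and Cacnb3-/- BMDCs, with 95% intervals from edgeR, for libraries taken as unpaired (grey circles) and with the culture as a block (black squares). Orange marks an adjusted p under 0.05 with no fold minimum, reached by Itpr3 and Plcd1 in Cacnb3-/- BMDCs from 0p5h to 24h, and Plcb1 has no value where it did not pass the filter.

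Itpr3 and Plcd1 have a high GC content, 57.1% and 57.8%, and their levels were low in the libraries whose GC trend was low. By its definition, a low GC trend means that genes of high GC content are on average lower in that library, so this match is in part built in. In the 6 libraries with a GC trend under -0.5, all from Cacnb3-/- BMDCs and 4 of them named 24h, Itpr3 lay between 0.94 and 1.18 CPM per kb. In the other 24 libraries it lay between 1.53 and 2.95 CPM per kb. Plcd1 lay between 6.24 and 8.23 CPM per kb in the 6 and between 8.77 and 16.8 CPM per kb in the others. The other genes lined up by GC content only in part. Plcb3, of 57.4% GC, was also lower in the 6 libraries, at 7.98 to 10.2 CPM per kb against 9.74 to 15.97. Plcd3, of 57.0% GC and few reads, had medians of 0.35 in the 6 and 0.36 in the others. Plcb2 (54.1% GC) had medians of 2.82 and 5.53, and Plcg2 (54.6%) of 9.63 and 13.7. Plcg1 (54.4%) was higher in the 6, at 9.47 and 8.21. Itpr1 (49.5%) was also higher, at 2.76 and 2.08, while Itpr2 (49.7%) was lower, at 1.54 and 1.93. The remaining Cacnb3-/- library named 24h, that of culture p974s865, had a GC trend of 0.10 and 3.21% mitochondrial reads, against 6.00% to 16.5% in the other 4, and its Itpr3 level of 1.95 CPM per kb fell among those of WT. With each library's GC trend removed, the blocked change from 0p5h to 24h was -0.24 for Itpr3 (adjusted p = 0.103) and -0.20 for Plcd1 (adjusted p = 0.0917). The median over the 10 genes was then -0.03, and Plcb3, at -0.18 with the block alone, was at 0.08. The dendritic cell markers had their lowest median in the same group, 11163 CPM against 18355 CPM at 0p5h. Cd74 was the highest of them, with means of 8456 CPM at 24h and 13101 CPM at 0p5h. The mature dendritic cell markers were not lower, with medians of 14736 CPM at 24h and 14531 CPM at 0p5h. How much of the lower Itpr3 and Plcd1 in these libraries goes with the GC trend, mitochondrial reads or these markers was not tested beyond these values. Fewer cells with a high level and less RNA per cell cannot be told apart in these bulk samples.

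**Figure D5:**
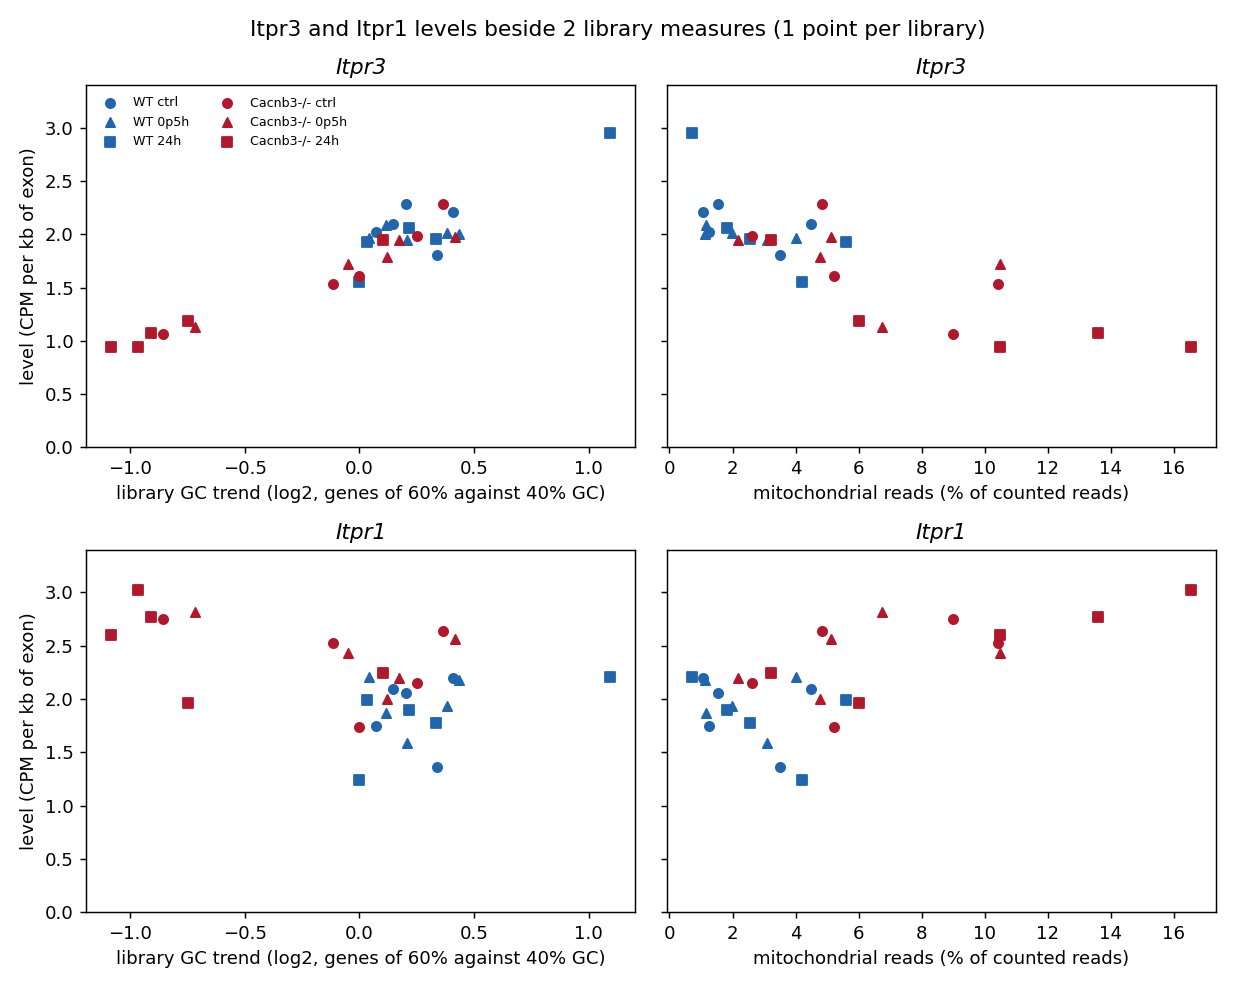
Level of Itpr3 (top) and Itpr1 (bottom) in CPM per kb of exon against the library's GC trend (left, log2) and its share of mitochondrial reads (right, percent), 1 point per library, WT in blue and Cacnb3-/- in red, with a symbol for each set. The 6 libraries with a GC trend under -0.5 hold the lowest Itpr3 levels, between 0.94 and 1.18 CPM per kb, while their Itpr1 levels run from 1.96 to 3.03 CPM per kb.

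Whether the change between sets differed between genotypes was tested as an interaction. Of the 10 genes 0 were called from ctrl to 0p5h, from ctrl to 24h or from 0p5h to 24h, as were 0% of all genes in each, with 0 of the 10 at an unadjusted p under 0.05 and 0 called by DESeq2. With the block and no fold minimum, 0%, 0.118% and 0.00745% of all genes passed and again 0 of the 10, whose smallest adjusted p were 1.0, 0.237 and 0.122. From 0p5h to 24h, 4 of the 10 had an unadjusted p under 0.05 with the block, as did 3817 of all 13424 genes tested. The 4 were Itpr3, with a difference of -0.53 between the log2 fold changes of Cacnb3-/- and WT, Plcd1 (-0.36), Plcg2 (-0.31) and Plcb3 (-0.29). With the GC trend removed as well, 0 of the 10 had an unadjusted p under 0.05 in edgeR, Itpr3 was at -0.23, Plcd1 at -0.03, Plcg2 at -0.06 and Plcb3 at 0.02. Without culture p974s865, Itpr3 (adjusted p = 0.0278) and Plcd1 (0.0383) passed in the fit with the block, where 20.3% of all genes passed. For Itpr1 and Itpr2 the differences were 0.18 and 0.21, with 95% intervals of -0.09 to 0.44 and -0.11 to 0.54. A different change of Itpr2 in the 2 genotypes was thus not shown. Between genotypes within a set, a comparison that carries the substrain with it, 0 of 10, 0 of 9 and 0 of 9 genes were called at ctrl, 0p5h and 24h by edgeR, as were 0% of all genes in each set. Unadjusted p under 0.05 numbered 0, 1 and 3 among these genes. Among all genes tested they numbered 2161 of 13022, 2103 of 12806 and 4877 of 12706. DESeq2 called 0 of these genes of the pathway. The PLC gene with the lowest p was Plcb3 at 24h, where WT had 52.9 ± 8.45 CPM and Cacnb3-/- BMDCs 39.9 ± 6.26 CPM (log2 fold change -0.39, standard error 0.15, adjusted p = 0.0765), and once the GC trend was removed this was 0.03. The receptors differed by more at 24h. Itpr3 was at 18.8 ± 4.69 CPM in WT against 10.9 ± 3.77 CPM in Cacnb3-/- BMDCs (log2 fold change -0.75, standard error 0.23, adjusted p = 0.0541), and with the GC trend removed at -0.36 (unadjusted p = 0.0338 in edgeR, adjusted p = 0.170). Itpr1 was at 17.9 ± 3.56 CPM in WT against 24.8 ± 4.17 CPM (log2 fold change 0.48, standard error 0.18, adjusted p = 0.0756), and with the GC trend removed at 0.52 (unadjusted p = 0.00989 in edgeR, adjusted p = 0.130). With no fold minimum, DESeq2 passed Itpr3 (adjusted p = 0.0183) and Plcb3 (0.0466), where 26.4% of all genes passed. The edgeR fit of all 30 libraries passed Itpr3 (0.00793), Plcb3 (0.0294) and Itpr1 (0.0297), where 29% of all genes passed. That fit had no block and took the libraries of a culture as independent.

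The rest of the pathway was followed in 8 lists of 79 genes, which hold other PLC genes, Gq family α subunits and their regulators, kinases and adaptors upstream of PLCγ, enzymes that supply PIP2, enzymes that break down IP3, partners of IP3 receptors, ryanodine receptors and the diacylglycerol arm. Of these genes, 64 to 67 passed the filter in each comparison. From ctrl to 0p5h, 1 was called in each genotype, and it was the same gene, Rgs2, a GTPase-activating protein that switches off Gq. Rgs2 rose from 89.6 ± 27.2 to 322 ± 90.2 CPM in WT (log2 fold change 1.85, standard error 0.25, adjusted p = 0.0173) and from 125 ± 19.5 to 414 ± 63.2 CPM in Cacnb3-/- BMDCs (1.71, standard error 0.15, adjusted p = 0.00043). In each genotype the lowest library named 0p5h exceeded the highest named ctrl. At 24h it was back at 75.3 ± 10.1 and 114 ± 19.3 CPM, a fall from 0p5h of 2.09 and 1.84 on the log2 scale (adjusted p = 0.000395 and 0.000188).

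With the block, Rgs18, another GTPase-activating protein for Gq, was also called in Cacnb3-/- BMDCs. It was at 1.41 ± 0.27 CPM at ctrl, 1.26 ± 0.34 at 0p5h and 3.11 ± 0.99 at 24h, a log2 fold change of 1.09 from ctrl (adjusted p = 0.0187 with the block, 0.410 without) and 1.28 from 0p5h (adjusted p = 0.00238 with the block, 0.0750 without). In WT it was at 1.11 ± 0.36, 0.95 ± 0.40 and 1.05 ± 0.65 CPM, and did not pass. This does not by itself show that the change of Rgs18 differs between genotypes. The Cacnb3-/- libraries named 24h also had a median GC trend of -0.91. No other gene of the 8 lists was called with or without the block. With the block and no fold minimum, 6 of 67 list genes passed from ctrl to 0p5h in WT, 4 higher and 2 lower, and 2 of 65 in Cacnb3-/- BMDCs, both higher. The shares of all genes that passed were 5.96% and 2.35%. From ctrl to 24h, 3 of 67 passed in WT, 1 higher and 2 lower, and 9 of 65 in Cacnb3-/- BMDCs, 4 higher and 5 lower, beside 6.05% and 8.54% of all genes. From 0p5h to 24h, 11 of 66 passed in WT, 2 higher and 9 lower, and 15 of 65 in Cacnb3-/- BMDCs, 4 higher and 11 lower, beside 11.3% and 28.6% of all genes. For the last comparison these include 3 of 10 tested PIP2 supply genes and 3 of 10 kinases and adaptors upstream of PLCγ, all lower. Median log2 fold changes of the list genes lay between -0.11 and 0.02 with the block.

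The genes whose log2 CPM most resembled that of each member over the 30 libraries were named as a description, and these libraries share 10 cultures, their depth and their GC trend. For Itpr3 these were Map1s, Gaa and Ubr4 (Pearson's r 0.957, 0.955 and 0.953), for Itpr1 Nrn1, Gad1 and Dcn (0.831, 0.816 and 0.801) and for Itpr2 Clmp, Rin2 and Ticam2 (0.862, 0.857 and 0.828). Plcb2 was nearest to Iqsec1, Mfsd12 and Rrbp1 (0.914, 0.911 and 0.910), Plcb3 to Map2k7, Dvl2 and Tmem63a (0.911, 0.904 and 0.904) and Plcg2 to Nadk, Tspan17 and Sbk1 (0.95, 0.935 and 0.935). Plcg1 was nearest to Tpm1, Tbc1d1 and Iffo2 (0.805, 0.80 and 0.780) and Plcd1 to Pla2g6, Dmac2 and Slc48a1 (0.860, 0.855 and 0.853). The low-count genes had looser neighbours, Adamtsl5, Per2 and Txnip for Plcb1 (0.698, 0.661 and 0.659) and Dscam, Cfap119 and Gm8276 for Plcd3 (0.655, 0.638 and 0.599). Between members, Itpr3 was closest to Plcb3 (0.839) and Plcd1 (0.748), and Itpr2 to Plcb2 (0.720), while Itpr1 had r between -0.50 and 0.23 with the other 9 and Plcg1 ran against Itpr2 (-0.55).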

How the data were processed

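The authors deposited raw read counts per gene for 30 libraries, which the file header gives as made by featureCounts 1.5.1 on Ensembl release 79 gene models of GRCm38, from read 1 and with no strand option. The submitters' processing notes also name STAR and DESeq2. Labels and study differ on sequencer, read layout and build, and the build here is that of the header. Samples were grouped by library name. Genes were named by Ensembl identifier through the GENCODE annotation, which gave 38984 of 43629 a symbol, all 10 members included. Its transcripts gave GC content and the longest-transcript lengths.

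Counts were tested as deposited in R 4.3.3 with edgeR 4.0.16 (TMM, filterByExpr, quasi-likelihood fit, Benjamini-Hochberg adjustment over all genes tested), separately for each comparison and two-sided. DESeq2 1.42.0 was an alternative. A call needed an adjusted p under 0.05 and at least 2-fold. P-values measure the spread between libraries from 5 cultures per genotype. Fits of several sets without the block took libraries of the same culture as independent, and so did the fit of all 30 libraries. Effective library sizes gave CPM, and exon length gave CPM per kb. The script was tested on simulated data. Alternatives were DESeq2's size factors, a fit of all 30 libraries, genes without a filter on low counts, calls without a fold minimum, a replicate block, removal of GC or length trends and leaving out each culture. DESeq2 with the block, the length trend with the block, leave-outs with the block and shares with the GC trend removed were added after seeing the data. The members and lists were chosen with earlier results of these data known. The text names the members, pathway list genes called at 2-fold in any comparison with or without the block, and the 3 genes with the highest Pearson's r for each member among 13755 genes.

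Culture numbers were checked as pairs from deviations of log2 CPM from group means. Libraries with the same number had a median correlation of 0.609 across genes and those with other numbers -0.219, and 29 of 30 pairs exceeded 0.1. The exception was 0.0746, in Cacnb3-/- culture p974s843 between ctrl and 24h, so the block for that comparison rests on the shared number of the culture.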

Additional observations from a re-analysis of the deposited data

Results flagged for a closer look

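A library far from the other 4 of its group was found in 5 of 60 groups of a gene, genotype and set, where chance gives about 1 in 20. Itpr3 in Cacnb3-/- BMDCs named 24h was at 17.5 CPM in culture p974s865 and at 8.45 to 10.6 CPM in the others. Plcb1 in Cacnb3-/- BMDCs named ctrl was at 0.144 CPM in culture p974s851 and at 0.888 to 0.945 CPM in the others. Plcd1 was at 23.3 CPM in WT culture p974s856 named 0p5h, with 30.0 to 31.6 CPM in the others. It was at 21.8 CPM in Cacnb3-/- culture p974s852 named 0p5h, with 30.9 to 34.2 CPM in the others. Plcd3 in Cacnb3-/- BMDCs named 0p5h was at 3.57 CPM in culture p974s853 and at 0.486 to 1.04 CPM in the others.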

How the results depend on the processing

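Of 2504 alternative values of 116 fold changes of the 10 genes, 0 were called at 2-fold, 195 had the other sign and 17 of these had a main change of at least 0.2. With the replicate block and no fold minimum, 2 of the 10 passed in Cacnb3-/- BMDCs from 0p5h to 24h, and the block changed no other call of the 10. From ctrl to 24h in Cacnb3-/- BMDCs, DESeq2 with the block put Plcd1 (adjusted p = 0.0322) and Plcb2 (0.0414) under 0.05, with 12.9% of all genes. From 0p5h to 24h in WT, edgeR with the block and the GC trend removed did so for Itpr2 (0.0280) and Plcb2 (0.0257), with 15.7% of all genes. Leaving out a culture with the block did so for Itpr2 (0.0157, 13.5% of all genes) in that comparison and Plcb2 (0.0488, 4.30%) from ctrl to 24h without WT p974s856, and from 0p5h to 24h for Plcb2 (0.0252, 22.3%) without Cacnb3-/- p974s852 and Plcg1 (0.0406, 40.7%) without p974s865. Between genotypes at 24h with no fold minimum, Itpr3 passed without WT p974s864 (0.0495, 18.7% of all genes), and without p974s865, where 35.3% of all genes passed, Itpr3 (0.00799), Plcd1 (0.0220), Plcb3 (0.0221), Plcg2 (0.0421) and Itpr1 (0.0431) passed. The cause was not tested. Without dividing CPM by length, mean shares over all libraries were 39.4% for Itpr2, 0.237% for Plcb1, 13.8% for Plcb2, 20.5% for Plcb3, 29.2% for Plcg1 and 12% for Plcd1. With the longest transcript they were 37.0% for Itpr2, 24.2% for Itpr3, 19.8% for Plcb3, 25% for Plcg1 and 16.8% for Plcd1. These follow from the lengths used. Sign changes from at least 0.2 concerned Plcd3, Plcb1, Plcb3 and Plcd1, mostly with the GC trend removed or without culture p974s853. Depth limits Plcb1 and Plcd3.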
